A study of Arabidopsis thaliana with 20 samples.

Results

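The plastid genome of Arabidopsis thaliana carries 6 genes for subunits of the chloroplast ATP synthase, and these 6 genes were taken by symbol, with no use of their measured values, from the 111 plastid genes of at least 70 bp that were fitted. Of these, 4 lie together as atpI, atpH, atpF and atpA (locus tags ArthCp010, ArthCp009, ArthCp008 and ArthCp007), and 2 lie together as atpB and atpE (ArthCp029 and ArthCp028). Protein occupancy of their DNA was read with IPOD (in vivo protein occupancy display). Formaldehyde ties proteins to the DNA they sit on, and after fragmentation the DNA that carries protein is sequenced next to total DNA of the same kind of sample (input). The leaf set had 4 IPOD and 4 input libraries from wild-type plants of the Col0 ecotype, 14 days old and grown on soil, whose chloroplasts were isolated first and then crosslinked. The seedling sets had 3 IPOD and 3 input libraries of Col0 and 3 and 3 libraries of pTAC3, from plants of about 4 days grown on plates in continuous light and crosslinked before the chloroplasts were isolated. Each seedling sample pooled 50 seedlings, and crosslinking was with 4% formaldehyde for 4 h in both tissues. Light was at 100 µmol per square metre per second for the plants of both tissues. Leaves and seedlings thus differed in age, growth and order of steps at once, these cannot be told apart, and leaves were not tested against seedlings.

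The chloroplast ATP synthase makes ATP from the proton gradient that photosynthetic electron transport builds across the thylakoid membrane. Its membrane part holds a ring of subunit c, encoded by atpH, beside subunit a, encoded by atpI, and its stalk includes subunit b, encoded by atpF. The catalytic head that faces the stroma is built of alternating alpha and beta subunits, encoded by atpA and atpB, and atpE encodes the epsilon subunit of the rotating stalk. The remaining subunits are encoded in the nucleus. Plastid genes of photosynthesis are transcribed mainly by the plastid-encoded RNA polymerase, and PTAC3 is a protein that associates with that polymerase.

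The values of both sets are reads per base, and a gene's value is its mean depth divided by the mean depth of the library, so 1 is the average of the plastid genome and a value is relative to all other regions of the same library. Mean depth was 50.02 to 3470 reads per base over the libraries, and over the 6 genes it was 30.5 to 3850. The leaf libraries fell into unlike sets: the correlation across genes, which are not independent replicates, was 0.96 between inputs 1 and 3 and 0.792 between inputs 2 and 4, against -0.0232 between inputs 1 and 2. The third Col0 seedling IPOD library is Col0 by its title and ptac3 by its cell line label, and was kept as Col0 by its title. All pTAC3 libraries carry wild type as genotype label, and no allele is named. PTAC3 is a nuclear gene, so plastid depth gives no check of that genotype. The labels do not say whether libraries of a group came from separate plants or cultures, so the p-values measure only the spread between these libraries.

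In the input DNA the 6 genes did not have equal depth, and the order differed between leaves and seedlings. The gene atpH, at 246 bp the shortest of the 6, had the highest mean relative depth in each of the 6 library groups. In the Col0 seedling inputs atpH was at 1.99, 1.80 and 1.91 times the library mean, and in the pTAC3 inputs at 2.11, 1.59 and 1.51. In the leaf inputs atpH was at 0.897, 1.82, 1.07 and 1.41, so that leaf inputs 1 and 3 lay near the average of the genome while inputs 2 and 4 were nearer the seedlings. Leaf atpH therefore averaged 1.30 ± 0.408 (SD, n = 4), the widest spread of any of the 6 genes in any group.

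The genes of the other cluster stood next in the order of the seedling inputs. The mean input depth of atpB was 1.28 ± 0.0622 in Col0 and 1.22 ± 0.0836 in pTAC3 (SD, n = 3), and that of atpE was 1.27 ± 0.064 and 1.28 ± 0.149. These values differ by less than the spread of either gene, and the coding regions of atpB and atpE overlap by a few bases. The gene atpA followed at 0.953 ± 0.0501 in Col0 and 0.979 ± 0.0408 in pTAC3. The lowest were atpI at 0.817 ± 0.0508 and atpF at 0.748 ± 0.0285 in Col0, and at 0.898 ± 0.0978 and 0.817 ± 0.0956 in pTAC3. In pTAC3 these 2 means differ by less than the SD of either gene. Within each pTAC3 input library, however, atpI lay above atpF, at 0.786, 0.953 and 0.957 against 0.714, 0.834 and 0.903. In the leaf inputs the other 5 genes lay between 0.937 and 1.04, and neighbours in that order were not separated beyond their SDs of 0.0456 to 0.138.

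**Figure D1:**
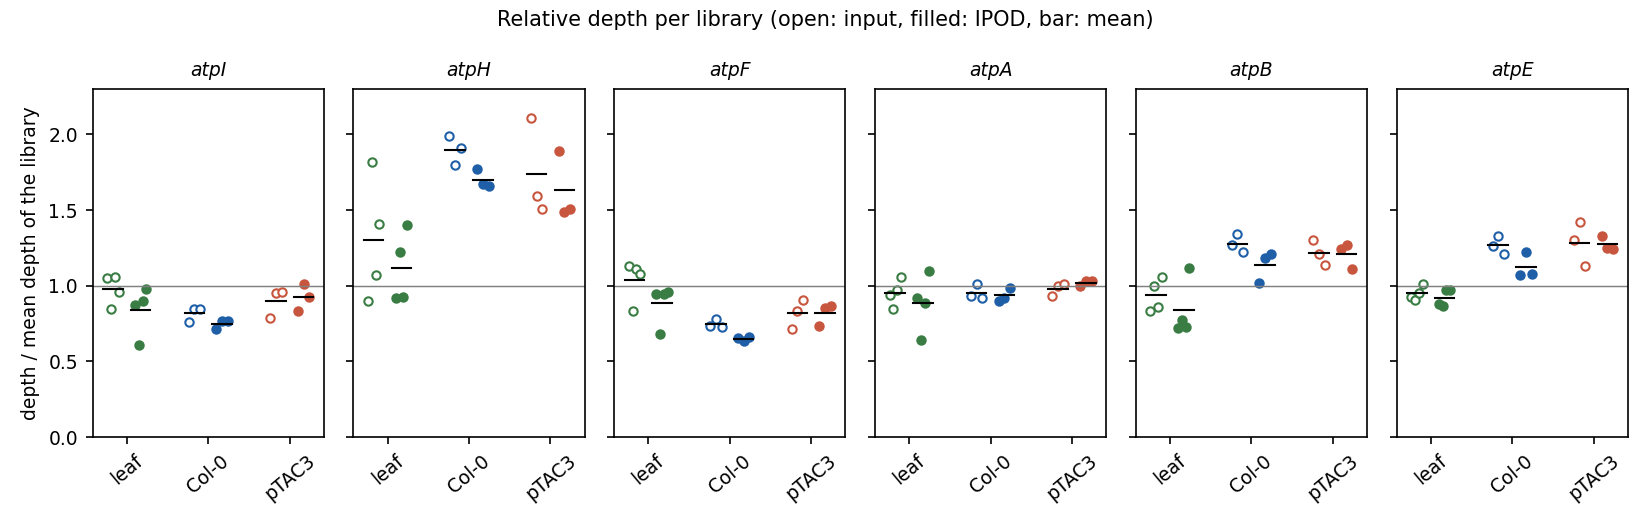
Depth over each ATP synthase gene divided by the mean depth of the library, for each input library (open) and IPOD library (filled), with bars at the group means. In seedlings atpH lies highest and atpF lowest, and the leaf libraries of atpH spread from 0.897 to 1.82.

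No difference in input depth between the genotypes passed the test in the 6 genes. Differences of pTAC3 input minus Col0 input ran from -0.13 for atpH to 0.13 for atpI on the log2 scale, and limma with Benjamini-Hochberg adjustment over all 111 genes gave adjusted p from 0.563 to 0.917 for the 6 genes. The 95% intervals reached from -0.39 to 0.12 for atpH and from -0.072 to 0.33 for atpI. No gene of the 111 was called at an adjusted p under 0.05 in this comparison (0%), while 9 higher (8.11%) and 4 lower (3.60%) genes had an unadjusted p under 0.05.

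In leaves, IPOD depth over the 6 genes was on average below input depth, and no gene passed the test. The mean log2 ratio of IPOD to input was -0.23 for atpF, -0.22 for atpI, -0.19 for atpH, -0.18 for atpB, -0.13 for atpA and -0.05 for atpE. By library, atpF had input values of 1.13, 0.833, 1.11 and 1.08 and IPOD values of 0.947, 0.682, 0.947 and 0.959 times the library mean. Each IPOD library of atpF was thus below the input library of its own number, but the groups overlap because library 2 was low in both fractions. The ratio of atpF was -0.23 ± 0.049 (SD, n = 4 pairs), from -0.27 to -0.16, and it was the 1 gene of the 6 below 0 in all 4 pairs. Of all genes, 26.1% were below 0 in all 4 pairs.

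The other leaf genes spread more. For atpB, input values of 0.833, 0.995, 0.862 and 1.06 stood beside IPOD values of 0.723, 0.774, 0.728 and 1.12, so 3 pairs were below 0 and pair 4 was at 0.071. The gene atpI gave ratios of -0.25, -0.44, -0.23 and 0.024, and atpA gave -0.038, -0.38, -0.13 and 0.042, again with pair 4 alone above 0. The ratios of atpH were 0.016, -0.56, -0.20 and -0.011, the widest range of the 6. Pair 2, the shallowest, had the lowest ratio in 5 of the 6 genes, and atpE, with ratios from -0.082 to 0.0065, had its lowest in pair 1. Over all 6 genes and 4 pairs, 19 of 24 ratios were below 0. The genes share the same libraries, so these 24 values are not independent.

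The leaf fit by limma gave adjusted p of 0.589 to 0.815 for the 6 genes, and the 95% interval of atpF ran from -0.60 to 0.15. No gene of the 111 was called (0% higher, 0% lower), with 8 higher (7.21%) and 2 lower (1.80%) genes at an unadjusted p under 0.05, none of them an ATP synthase gene. With the library number as a block, the fit called 14.4% of all genes higher and 2.70% lower, and again 0 of the 6, with adjusted p of 0.0636 for atpF and 0.0985 for atpI. Within libraries 1 and 3 alone, which called 33.3% of all genes higher and 41.4% lower, atpF (-0.23, adjusted p = 0.00634), atpI (-0.24, adjusted p = 0.00678) and atpB (-0.22, adjusted p = 0.00892) were lower by limma. Within libraries 2 and 4 the values were -0.22 for atpF, -0.21 for atpI and -0.14 for atpB, with an adjusted p of 0.998. The size of the leaf difference was thus near in both sets for atpF and atpI, and the calls were made in libraries 1 and 3 alone.

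Scaling touched the leaf values. Centring each library on its median gene raised all leaf ratios by 0.11 on the log2 scale, which left 5 of the 6 genes below 0, with a median of -0.073, and put atpE at 0.061. The leaf ratios of the 6 genes ranked 15th to 57th from the lowest of 111 genes, and their median was -0.18, against -0.063 for all genes and -0.15 for the 78 protein-coding genes. The genes next to them in that order were rpl16 below at -0.23 and ndhJ above at -0.023.

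In Col0 seedlings the 6 genes also had less IPOD than input depth on average, and in 4 of the 6 the SD over pairs was smaller than in leaves. The mean log2 ratio was -0.19 for atpF, -0.17 for atpE, -0.17 for atpB, -0.16 for atpH, -0.12 for atpI and -0.03 for atpA. For atpF the inputs were at 0.733, 0.781 and 0.730 and the IPOD libraries at 0.653, 0.636 and 0.658 times the library mean, with no overlap. The atpB inputs were at 1.27, 1.34 and 1.22 and its IPOD libraries at 1.02, 1.18 and 1.21, and the atpH inputs at 1.99, 1.80 and 1.91 and its IPOD libraries at 1.77, 1.67 and 1.66. In both genes every IPOD library lay below every input library, although the closest values of atpB were 1.21 in IPOD and 1.22 in input.

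These 3 of the 6 genes had IPOD libraries that all lay below the inputs, where 23.4% of all 111 genes did so and 19.8% did the reverse. The remaining genes overlapped between fractions. For atpE the inputs of 1.26, 1.33 and 1.21 stood against IPOD values of 1.07, 1.22 and 1.08, and for atpI the inputs of 0.758, 0.843 and 0.849 against 0.716, 0.764 and 0.769. The gene atpA, whose inputs were 0.931, 1.01 and 0.917, had IPOD values of 0.900, 0.920 and 0.987, and its pair 3 was above 0 at 0.10. Over the 6 genes and 3 pairs, 17 of 18 ratios were below 0, and these values are not independent because the genes share the same libraries. Of the 6 genes 5 were below 0 in every pair, as were 39.6% of all genes.

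By limma over the 12 seedling libraries, none of the 6 genes was called in Col0, where 7.21% of all genes were called higher and 3.60% lower. The lowest adjusted p of the 6 was 0.198, for atpF (-0.19, SE 0.088), followed by 0.211 for atpB and 0.216 for atpE. No ATP synthase gene had an unadjusted p under 0.05, while 16 higher (14.4%) and 11 lower (9.91%) genes of the 111 did. Without the third IPOD library, whose labels disagree, the ratios were -0.20 for atpF, -0.21 for atpB and -0.067 for atpA, with 0 of the 6 called. Fitted on the 6 Col0 libraries alone, which called 12.6% of genes higher and 7.21% lower, atpF was lower with an adjusted p of 0.0415 by limma.

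Among the 111 genes the 6 ranked 10th (atpF), 14th (atpE), 17th (atpB), 18th (atpH), 30th (atpI) and 61st (atpA) from the lowest in Col0. Next below them came rpoC1 at -0.20 and next above rpl14 at -0.02. Their median of -0.16 stood against -0.046 for all genes, a list that also holds tRNA and rRNA genes. Every gene called higher in Col0 was a tRNA gene, so this comparison is not with protein-coding genes alone. Under centring the median of the 6 was -0.12 and atpA moved to 0.0072, the only sign change of the 6 in Col0 under that scaling.

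**Figure D2:**
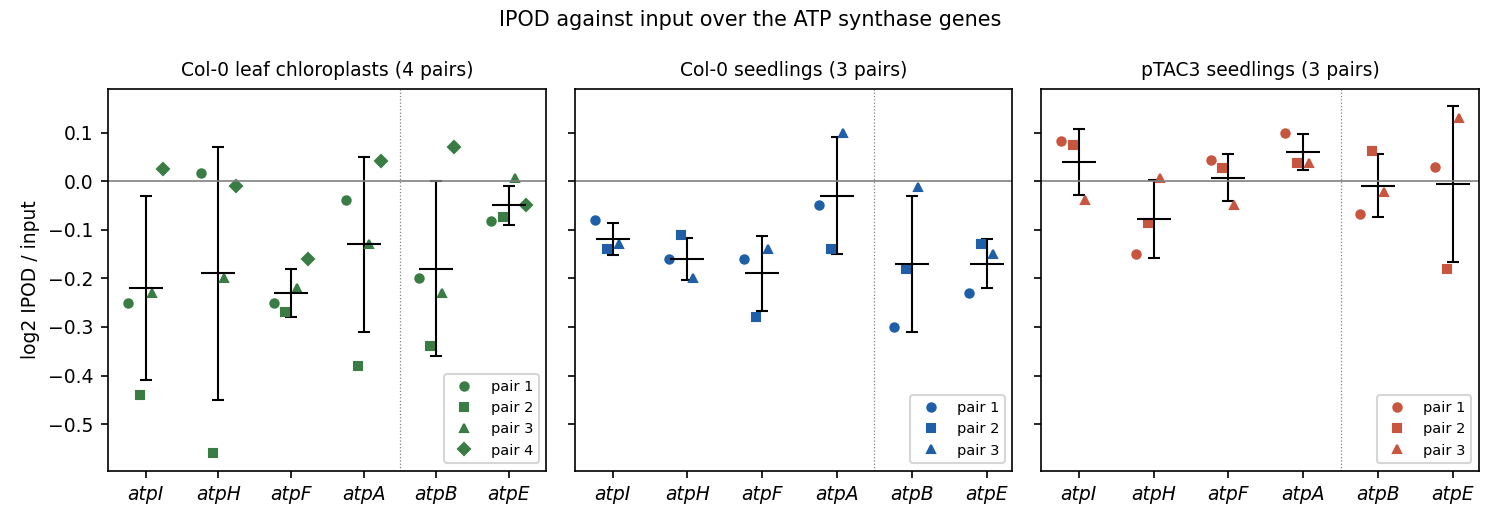
Log2 ratio of IPOD to input for each ATP synthase gene and each pair of libraries of the same number, with the mean and SD over pairs (black). Most points of leaves and Col0 seedlings lie below 0, and those of pTAC3 seedlings lie on both sides of it.

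In pTAC3 seedlings the 6 genes lay close to 0. The mean log2 ratio was 0.059 for atpA, 0.04 for atpI, 0.0074 for atpF, -0.0062 for atpE, -0.0092 for atpB and -0.078 for atpH. The atpF inputs were at 0.714, 0.834 and 0.903 and its IPOD libraries at 0.737, 0.850 and 0.865, and the atpB inputs at 1.30, 1.21 and 1.14 and its IPOD libraries at 1.24, 1.27 and 1.11. The fractions overlapped in all 6 genes. Of the 18 ratios, which come from the same 3 pairs and are not independent, 7 were below 0. The gene atpA was above 0 in all 3 pairs, as were 29.7% of all genes.

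The limma fit called no gene of the 111 in pTAC3 (0% in either direction), without and with the library number as a block, and 4 higher (3.60%) and 1 lower (0.901%) genes had an unadjusted p under 0.05, none of them an ATP synthase gene. For the 6 genes adjusted p lay between 0.953 and 0.992. The 95% intervals reached from -0.19 to 0.20 for atpF and from -0.34 to 0.18 for atpH. The Col0 mean of atpH, -0.16, lies within its pTAC3 interval, and that of atpF, -0.19, lies just below the lower end of its own. The 6 genes ranked 17th (atpH) to 72nd (atpA) of 111, with a median of 0.0006 against 0.032 for all genes. Centred libraries put 5 of the 6 below 0, with a median of -0.052, so the sign of these small values rests on the scaling.

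**Figure D3:**
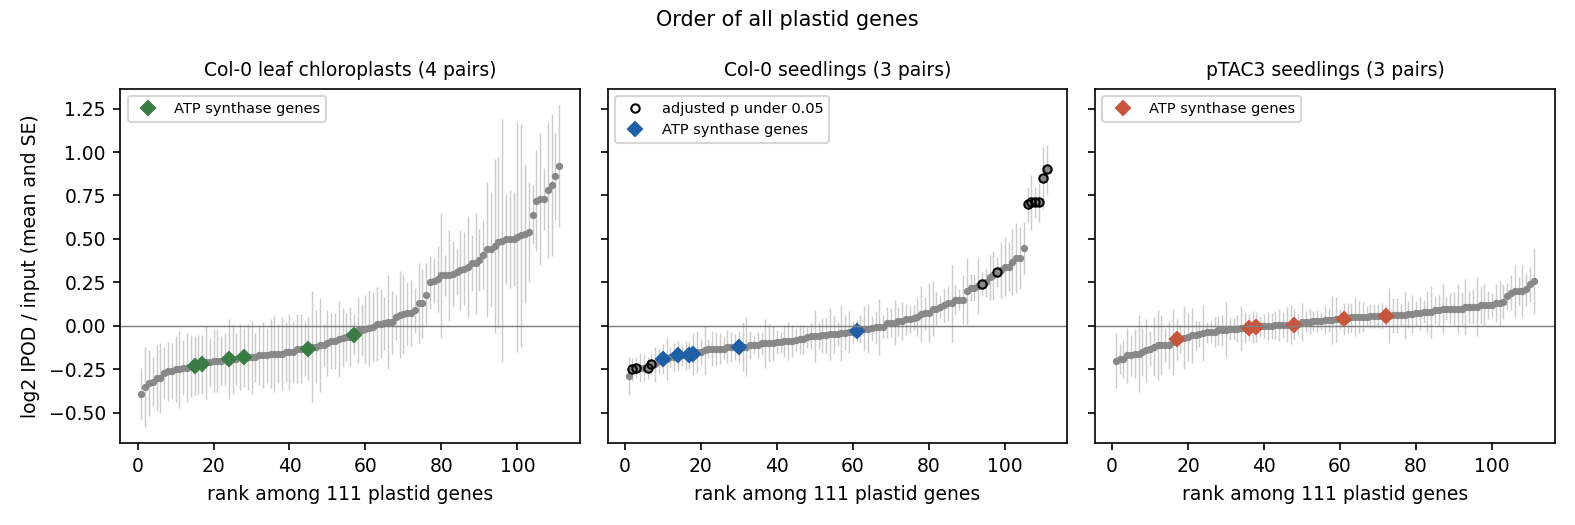
All 111 plastid genes in the order of their log2 ratio of IPOD to input (points with SE), with the ATP synthase genes as diamonds and genes at an adjusted p under 0.05 circled. The ATP synthase genes lie at ranks 15 to 57 in leaves, 10 to 61 in Col0 seedlings and 17 to 72 in pTAC3 seedlings.

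The ratio was higher in pTAC3 than in Col0 seedlings in all 6 genes, and the test of that difference was not passed by any. The difference, pTAC3 ratio minus Col0 ratio, was 0.20 for atpF, 0.16 each for atpI, atpB and atpE, 0.088 for atpA and 0.079 for atpH. For atpF the Col0 ratios were -0.16, -0.28 and -0.14 and the pTAC3 ratios 0.044, 0.027 and -0.049, and for atpI the Col0 ratios were -0.081, -0.14 and -0.13 and the pTAC3 ratios 0.083, 0.074 and -0.039. In these 2 genes every pTAC3 ratio lay above every Col0 ratio, as it did in 30.6% of all genes. The other 4 genes overlapped.

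The adjusted p by limma was 0.339 for atpF (SE 0.12, 95% interval -0.075 to 0.47) and 0.372 to 0.761 for the other 5 genes. Over all genes 0% were called higher and 2.70% lower in pTAC3, and 8 genes in each direction (7.21%) had an unadjusted p under 0.05, with no ATP synthase gene among them. The median difference over all 111 genes was itself 0.088, against 0.16 for the 6 genes and 0.15 for protein-coding genes. Relative to the median gene of each library the differences were 0.11 for atpF, 0.067 to 0.075 for atpI, atpB and atpE, -0.00067 for atpA and -0.011 for atpH. Without the doubtful Col0 IPOD library the differences were 0.062 for atpH to 0.21 for atpF, and none was called.

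Taken as whole stretches of DNA, spacers included, both gene clusters gave values near those of their genes. The cluster from atpI to atpA, 4833 bp long, had leaf ratios of -0.17, -0.31, -0.20 and -0.063, a mean of -0.18 ± 0.10 (SD, n = 4 pairs, two-sided exact permutation test over libraries, p = 0.286). Leaving out 1 leaf library at a time gave means from -0.25 to -0.073, the last without IPOD library 2. In Col0 seedlings its ratios were -0.10, -0.18 and -0.055 (mean -0.11 ± 0.061, exact p = 0.1), and in pTAC3 they were 0.051, 0.025 and 0.0071 (mean 0.028 ± 0.022, exact p = 0.6). All 4 leaf pairs and all 3 Col0 pairs were thus below 0 and all 3 pTAC3 pairs above it, the last by less than 0.1. With centred libraries the means were -0.074 in leaves, -0.073 in Col0 and -0.025 in pTAC3. The sign of the small pTAC3 value thus rests on the scaling. With 3 libraries against 3 the test cannot give a p below 0.1.

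The cluster of atpB and atpE, 1892 bp long, had leaf ratios of -0.17, -0.28, -0.18 and 0.047 (mean -0.15 ± 0.14, exact p = 0.286), and means from -0.26 (without IPOD library 4) to -0.10 with 1 library left out. Its Col0 ratios were -0.28, -0.17 and -0.041 (mean -0.17 ± 0.12, exact p = 0.1) and its pTAC3 ratios -0.046, 0.0084 and 0.012 (mean -0.0088 ± 0.033, exact p = 0.9). Between genotypes the difference was 0.14 for the cluster of atpI (exact permutation p = 0.1, the smallest this design can give) and 0.16 for that of atpB (exact permutation p = 0.2). Centred libraries gave 0.048 and 0.068 for these differences. The ratio of the atpB cluster itself was then -0.036 in leaves, -0.13 in Col0 and -0.061 in pTAC3.

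Whether the clusters differ from each other in their ratio was asked from the difference of their log2 depths within each library, in which the scaling of the library cancels. IPOD minus input of that difference was -0.038 in leaves (exact permutation p = 0.743), 0.056 in Col0 (p = 0.6) and 0.037 in pTAC3 (p = 0.8). The per-pair values ran from -0.11 to 0.0059 in leaves, from -0.014 to 0.19 in Col0 and from -0.0045 to 0.10 in pTAC3. The spread between pairs was larger than the mean in each set.

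Genes whose ratio ran most like that of the clusters over the 10 pairs of libraries came from other gene classes. For the mean of atpI, atpH, atpF and atpA these included petD (r = 0.934), which encodes a cytochrome b6f subunit, and the ribosomal protein gene rpl2 (r = 0.915). For the mean of atpB and atpE they were ycf2 (r = 0.858), psaC of photosystem I (r = 0.822) and psbB of photosystem II (r = 0.804). These values describe 10 pairs that fall into 3 sets and share libraries between genes. In Col0 the mean ratio was -0.22 for rpl2, -0.24 for ycf2 and -0.24 for psaC.

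The other plastid genes of photosynthetic electron transport can be set beside the ATP synthase in the same fits. In Col0 seedlings the median ratio was -0.066 over 5 photosystem I genes, -0.056 over 15 photosystem II genes, -0.054 over 6 cytochrome b6f genes and -0.039 over 11 NDH genes, against -0.16 for the ATP synthase. Called lower by limma were 1 photosystem I gene and 1 NDH gene, and called higher were 0 genes of these lists, where 3.60% of all 111 genes were called lower and 7.21% higher. In leaves the medians were 0.014, 0.064, -0.14 and -0.13 in the same order, against -0.18, and 0 genes of any list were called. In pTAC3 they were 0.029, 0.082, 0.075 and 0.10, against 0.0006, also with 0 calls. The difference between genotypes had a median of 0.14 for both photosystems, 0.061 for cytochrome b6f and 0.15 for NDH, against 0.16 for the ATP synthase.

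The profile along the genes was followed in 50 bp bins from the neighbouring gene on one side to the neighbouring gene on the other. Positions are those of the deposited files (plastid chromosome, TAIR10). The cluster of atpI covered 107 bins from 9651 to 15000 with its flanks, running from trnR (ArthCt093) past atpA, atpF, atpH and atpI to rps2, and the cluster of atpB covered 56 bins from 52151 to 54950, running from trnM past atpE and atpB to rbcL. In leaves 84.0% of these 163 bins were below 0, against 67.9% of the 2564 bins of the genome. In Col0 seedlings the shares were 72.4% and 62.8%, and in pTAC3 seedlings 37.4% and 43.1%.

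Inside the genes the ratio was uneven. In Col0, 23 of 25 bins of atpF and all 30 bins of atpB were below 0, but 15 of 30 bins of atpA were. In leaves all bins of atpI (15), atpH (5) and atpB (30) were below 0, as were 24 of 30 in atpA and 5 of 8 in atpE. In pTAC3 the bins below 0 numbered 9 of 25 in atpF, 15 of 30 in atpB and 6 of 30 in atpA. By limma without a block, no bin inside the 6 genes was called in any set. That fit called 0% of all bins in leaves and pTAC3, and 1.99% higher and 1.21% lower in Col0. With the library number as a block, 2 of these 113 bins were called lower in leaves, and 2 higher and 14 lower in Col0. Of all bins the block called 5.07% higher and 1.37% lower in leaves, and 11.1% and 14.0% in Col0.

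**Figure D4:**
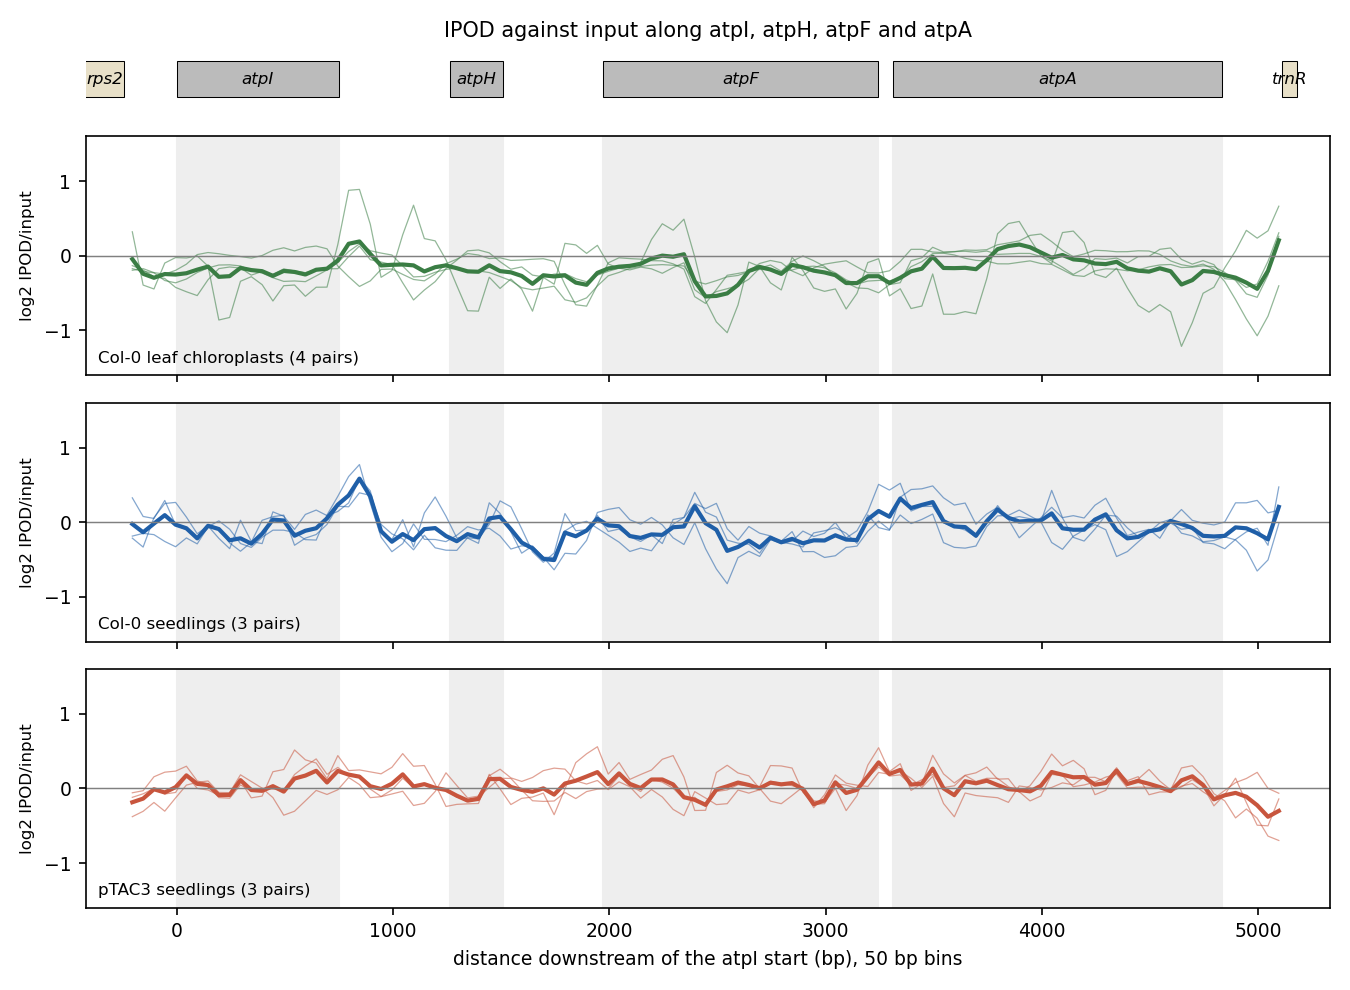
Log2 ratio of IPOD to input in 50 bp bins along atpI, atpH, atpF and atpA, from the atpI start, for each pair (thin) and their mean (thick). Col0 seedlings show a rise to 0.58 behind the end of atpI and a dip to -0.51 between atpH and atpF, and pTAC3 seedlings are at 0.16 and -0.083 in these bins.

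Local highs and lows stood out in the spacers of the atpI cluster, named here after their values were seen. In the spacer of 513 bp between atpI and atpH, the bin at 13901 to 13950, which lies 820 to 869 bp behind the atpI start, had Col0 ratios of 0.59, 0.77 and 0.39. Its mean of 0.58 (SE 0.22) was the highest of the 107 bins of this locus and was not called by limma (adjusted p = 0.168). In pTAC3 it had ratios of 0.25, 0.17 and 0.052. In leaves the 4 pairs gave 0.13, 0.89, 0.16 and -0.41, on both sides of 0.

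The spacer of 463 bp between atpH and atpF held the lowest bins of the cluster in Col0. The bin at 13001 to 13050 had ratios of -0.64, -0.47 and -0.41 (mean -0.51, SE 0.14, adjusted p = 0.0672 by limma), and the bin after it, at 13051 to 13100, had -0.47, -0.47 and -0.54 (mean -0.49, adjusted p = 0.0554). All 3 pairs were low in both bins, and neither was called. Over the whole spacer the Col0 ratio was -0.26 ± 0.10 (SD, n = 3 pairs), with the IPOD libraries below the inputs, the leaf ratio was -0.28 ± 0.12 (SD, n = 4 pairs), and the pTAC3 ratio was 0.019 ± 0.12 (SD, n = 3 pairs). The difference between genotypes in the bin at 13051, which was picked for its low Col0 ratio, was 0.49 (SE 0.18, adjusted p = 0.501 by limma).

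Leaves had their lowest bins inside atpF. At 12251 to 12300 the leaf ratios were -0.48, -0.89, -0.33 and -0.45, and at 12301 to 12350 they were -0.56, -0.60, -0.38 and -0.64, so all 4 pairs were low in both bins. The mean was -0.54 in each (adjusted p = 0.764 by limma), and with the library number as a block both were called lower (adjusted p = 0.0401 and 0.0391), where the block called 5.07% of all bins higher and 1.37% lower. The means of pairs 1 and 3 were -0.41 and -0.47 and those of pairs 2 and 4 were -0.67 and -0.62. In Col0 the first of these bins was at -0.63, 0.068 and 0.25 and the second at -0.36, 0.13 and 0.18, so pair 1 was low in both and pairs 2 and 3 were above 0. The neighbouring bin at 12201 to 12250 was below 0 in all 3 Col0 pairs (-0.82, -0.24 and -0.088) and in all 4 leaf pairs (-0.44, -1.03, -0.28 and -0.26).

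The strongest local signal beside the ATP synthase genes lay in the spacer between atpB and rbcL, which are transcribed away from each other. Rubisco's large subunit is encoded by rbcL. In the bin at 54751 to 54800, which is 595 to 644 bp before the atpB start and 158 to 207 bp before that of rbcL, the Col0 ratios were 0.75, 1.28 and 0.90, a mean of 0.98 (SE 0.17, adjusted p = 0.00787 by limma over 2564 bins). It was the 1 bin of 163 that was called in Col0, where 1.99% of all bins were called higher and 1.21% lower. Without the third IPOD library it was at 1.02 (adjusted p = 0.0157), and without library 2 of either fraction it was at 0.89 to 0.91 and not called (adjusted p = 0.0692 and 0.0599).

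The same bin was high in 3 of the 4 leaf pairs, at 1.02, 1.46, 0.93 and -0.11, and the leaf mean of 0.83 was not called (adjusted p = 0.764 by limma). Leaf IPOD library 4 decided that value: without it the mean was 1.21 and the bin was called (adjusted p = 0.0272). Pairs 1 and 3 averaged 0.98 and pairs 2 and 4 averaged 0.68. The pTAC3 pairs were at 0.29, 0.10 and -0.079, on both sides of 0. The bin was picked for its high Col0 ratio, and that ratio is subtracted in the difference between genotypes. The choice thus favours a negative difference, and the p-values of that difference are only descriptive. The difference was -0.87 (SE 0.24) and did not pass adjustment over all bins (adjusted p = 0.333 by limma). Without pTAC3 input library 1 it was -1.06 and called (adjusted p = 0.0461), and over the fits that left out 1 library it ran from -1.06 to -0.69.

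Nearer to atpB the sign turned. The bins from 54151 to 54400, all within 250 bp before the atpB start, were below 0 in leaves and in Col0, with the lowest Col0 value of -0.35 at 54301 to 54350. In Col0 the ratio of IPOD to input was thus below 0 at the atpB end of the spacer and above 0 at its rbcL end. The first bin inside atpB, at 54101 to 54150, was the lowest of the gene in Col0 at -0.40 (adjusted p = 0.113 by limma).

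**Figure D5:**
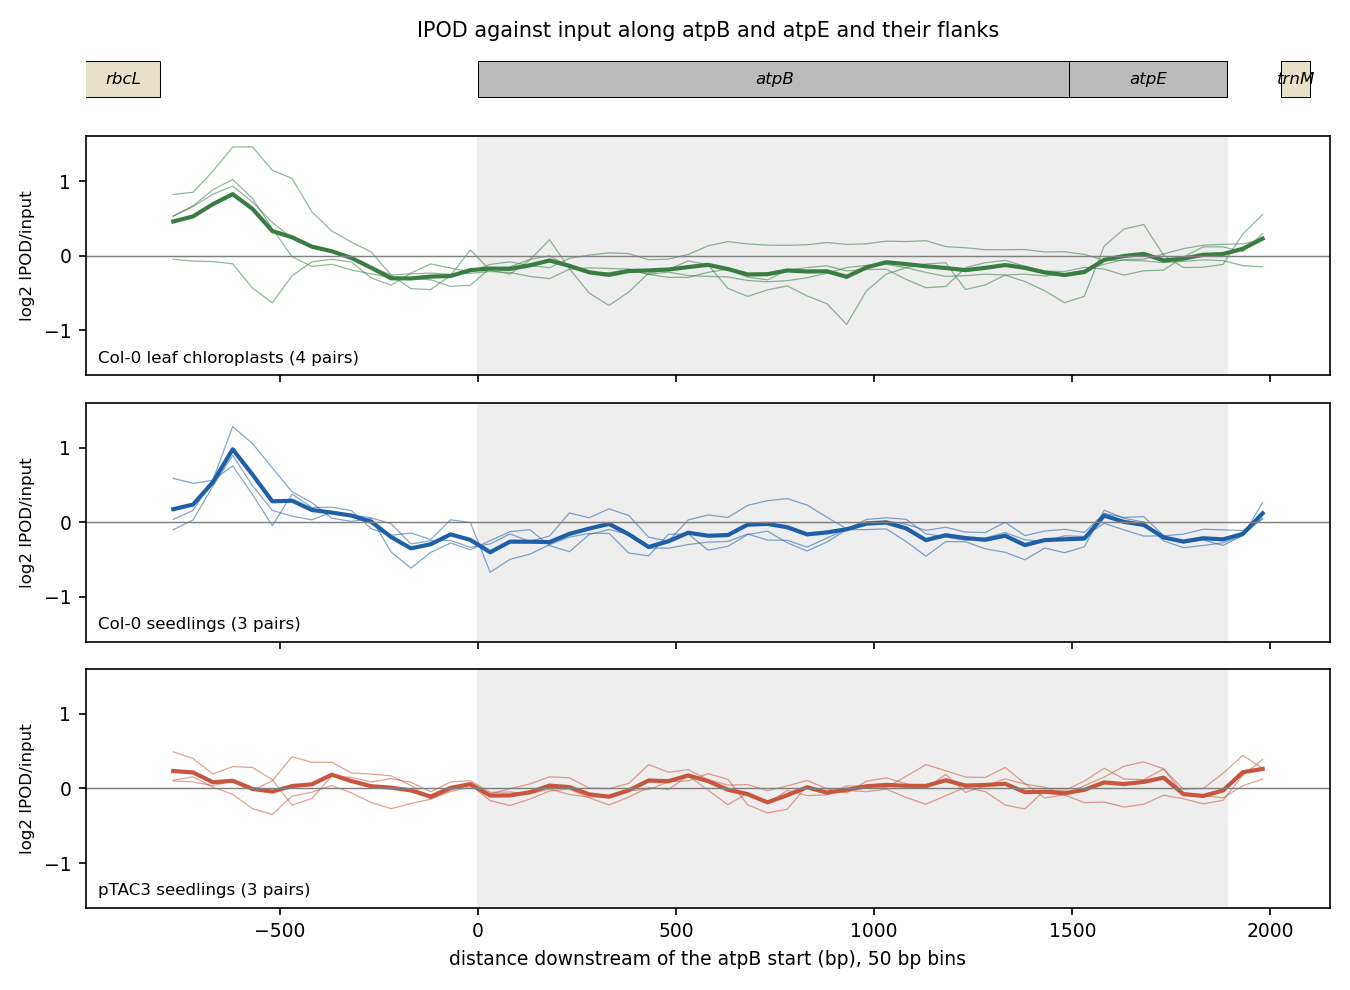
Log2 ratio of IPOD to input in 50 bp bins along atpB and atpE and the spacer to rbcL, from the atpB start, for each pair (thin) and their mean (thick). Leaves and Col0 seedlings peak at 0.83 and 0.98 on the rbcL side of the spacer and fall below 0 before the atpB start, and pTAC3 seedlings are at 0.10 at the peak.

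The window at each gene start, from 250 bp before it to 50 bp inside, gave 1 call among the 6 genes. For atpB the Col0 ratios of this window were -0.27, -0.37 and -0.25, every IPOD library was below every input library, and the mean of -0.30 (SE 0.084) had an adjusted p of 0.034 by limma over 222 windows at gene ends. Of those windows 12.2% were called higher and 4.50% lower in Col0. Without the third IPOD library the value was -0.34 (adjusted p = 0.0252). Leaving out any of the other 5 Col0 libraries kept it between -0.32 and -0.26 and ended the call (adjusted p = 0.066 to 0.113).

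In leaves the atpB start window had ratios of -0.32, -0.28, -0.24 and -0.20, all below 0 (mean -0.26, adjusted p = 0.489 by limma). With the library number as a block it was called lower (adjusted p = 0.0489), as was the start window of atpA, with ratios of -0.41, -0.42, -0.33 and -0.15 (mean -0.33, adjusted p = 0.0368), where the block called 18.9% of all windows higher and 10.4% lower. In pTAC3 the atpB start window was at 0.03, -0.025 and -0.13 (mean -0.04, adjusted p = 0.996). The start of atpI, the first gene of its cluster, had window ratios of -0.19 in leaves, -0.011 in Col0 and -0.053 in pTAC3, with adjusted p of 0.546, 0.979 and 0.996.

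The genes on either side of the clusters did not share the pattern of the ATP synthase genes in all cases. The gene trnM, a tRNA gene separated from the end of atpE by 136 bp, had Col0 inputs at 0.545, 0.531 and 0.611 and IPOD libraries at 0.898, 1.10 and 0.937 times the library mean, with no overlap. Its ratio of 0.71 (SE 0.11) was called higher in Col0 (adjusted p = 0.0011 by limma), was 0.0074 in pTAC3, and the difference of -0.70 between genotypes was called (adjusted p = 0.0239). Leaving out 1 library at a time kept the Col0 call in 12 of 12 fits and the genotype call in 7 of 12, and it was lost without Col0 input 1 (-0.68) or 2 (-0.67), Col0 IPOD 2 (-0.62), or pTAC3 input 2 (-0.66) or 3 (-0.64). The atpE gene beside it was at -0.17 and -0.0062. The genes rps2, at -0.20 in leaves and -0.095 in Col0, and rbcL, at 0.18 and 0.018, were not called, nor was trnR (ArthCt093) at 0.29 and -0.12.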

How the data were processed

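The authors deposited whole-number coverage, a signal that gives the reads at every plastid position, with 1 column per library and no scaling, positions being on TAIR10 per the file headers. Trim Galore 0.4.1, Bowtie2 2.2.8.9 and bedtools 2.25.0 are named in the submitters' processing notes. How reads of the inverted repeat were placed, read length and duplicate removal are not given in the sources used here. Neighbouring bases share reads, so no count model was used.

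Gene positions came from a TAIR10.1 gene table that lists 129 plastid genes. Its numbering was checked against the repeat in the files (11 of 11 repeated genes, 20 of 20 libraries), and 1 copy of the repeat was left out. Depth was divided by the library mean, and log2 was taken after adding 10% of the median 50 bp bin, which understates changes where depth is low. limma 3.58.1 (R 4.3.3) was fitted on 8 leaf and on 12 seedling libraries, over 111 genes, 222 windows and 2564 bins, with Benjamini-Hochberg adjustment and calls at an adjusted p under 0.05. It was tested on simulated data. The gene table gives no strand, so windows were made at both ends of all genes, and the start of the ATP synthase genes was taken from textbook knowledge of their direction.

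Same-numbered IPOD and input libraries deviated together over bins in leaves (r = 0.626 to 0.916) and pTAC3 (0.228 to 0.771), which were taken as pairs. In Col0 r was 0.257 and 0.221 for numbers 1 and 2 but 0.0229 for number 3. Ratios per pair follow the library numbers in every set all the same. Their SD, the counts over pairs and the calls with the block carry these limits. The alternatives were other scaling, pseudocounts, filters, bins, blocks and left-out libraries. The genes named are the 6 genes, their neighbours, the 3 most alike genes per cluster, of which 1 is not reported here, and those next in order. The genes and lists were chosen with earlier results of these data known.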

Additional observations from a re-analysis of the deposited data

Results flagged for a closer look

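Among 20 leaf values tested for a library far from the other 3 of its group, 3 stood apart, where chance gives about 1 in 20. For atpF, leaf IPOD library 2 was at -0.41 on the log2 scale of relative depth, with the other libraries at 0.054 to 0.082. For atpF, leaf input library 2 was at -0.13, with the others at 0.24 to 0.30, so the pair was low in both fractions and its ratio of -0.27 was near those of the other pairs. For atpB, leaf IPOD library 4 was at 0.28, with the others at -0.30 to -0.24. The values of library 2 rest on the lowest depth of the leaf set, 34.1 reads per base over atpF in IPOD and 104 in input. The part of depth in these values was not tested.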

How the results depend on the processing

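With the library number as a replicate block, the number of genes called was 19 in leaves, 36 in Col0 seedlings and 32 for the genotype difference, against 0, 12 and 3 without it. In Col0 this was 19.8% of genes higher and 12.6% lower, with 20.7% and 13.5% of windows and 11.1% and 14.0% of bins. Of the 6 ATP synthase genes the block called 0 in leaves and 2 in Col0, atpF (-0.19, adjusted p = 0.0168 by limma) and atpH (-0.16, adjusted p = 0.0318). It called 2 of their start windows in leaves and 3 in Col0, and, of the 163 bins, 2 in leaves, 28 in Col0 (8 higher, 20 lower) and 4 for the genotype difference. For that difference it called 0.613% of these bins higher and 1.84% lower, against 2.15% and 5.11% of all bins. Not every Col0 number paired by the check, and the leaf check cannot tell same-numbered libraries from others of their set. In leaves, Col0 and the genotype difference the block is thus a description. For the bin at 54751, picked for its Col0 ratio, the genotype difference was -0.87 with the block (adjusted p = 0.0012 by limma). Over the alternatives its adjusted p ran from 0.0012 to 0.837, and these p-values carry the limit of that choice. A block could not be fitted for input between genotypes. For whole clusters, sign flips over pairs gave the same values (exact p = 0.125 to 0.25 in leaves, 0.25 in Col0, 0.25 to 1 in pTAC3). In Col0 the block also called windows at the far ends of genes, neither called without it. That of atpF was higher (0.20, adjusted p = 0.0309 by limma) and that of atpH lower (-0.24, adjusted p = 0.0123 by limma).

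Leaf libraries 1 and 3 alone gave 83 called genes and 3 of the 6. The blocked leaf fit without pair 4, an alternative chosen after seeing the data, gave 62 and 3 (atpI -0.30, atpF -0.25, atpB -0.26). That fit called 31.5% of all genes higher and 24.3% lower. In Col0, 6 genes were called with median depth, and 22 each with robust limma-trend and on Col0 libraries alone, with 1 of the 6 in the last. The genotype difference had 8 calls with limma-trend. Of the bins of both loci, those called in Col0 were 2, both higher, with centred libraries (of all bins 2.54% higher, 1.29% lower), and 1 higher and 2 lower, or 3, at 100 bp (2.03% and 1.56%). The cause was not tested.

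Centred libraries turned the sign of atpE in leaves (0.061), atpA in Col0 (0.0072), atpI (-0.013), atpF (-0.045) and the atpI cluster (-0.025) in pTAC3, atpH (-0.011) and atpA (-0.00067) in the genotype difference, and atpE in input (-0.02). In pTAC3, atpB became 0.0034 with the 50% pseudocount and 0.0023 with both repeat copies, and atpE 0.0048, 0.0052 and, with median depth, 0.056.

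Leaving out 1 library at a time gave 0 to 4 called genes in leaves, 4 to 14 in Col0, 0 to 9 for the genotype difference and 0 to 10 in input, with 0 of the 6 in each. Called start windows in Col0 ran from 0 to 1 and called bins from 0 to 1 in leaves, 0 to 5 in Col0 and 0 to 1 for the genotype difference, where at most 1.01%, 3.28% and 0% of all bins were called higher and 0%, 2.34% and 0.39% lower. Values ran from -0.022 to 0.066 for the atpI cluster and from -0.06 to 0.032 for the atpB cluster in pTAC3. The difference between clusters ran from -0.12 to 0.037 in leaves and from -0.049 to 0.13 in pTAC3. In leaves atpI ran from -0.30 to -0.08 and atpF from -0.33 to -0.11, both nearest 0 without IPOD 2, atpH from -0.34 (without input 1) to -0.026 (without input 2), atpB from -0.32 to -0.12 and atpE from -0.08 to -0.014. In Col0 atpB ran from -0.21 to -0.094 (without IPOD 1). Ranges across 0 were -0.23 to 0.018 for atpA in leaves, -0.067 to 0.013 for atpA in Col0, -0.051 to 0.11 for atpI, -0.18 to 0.062 for atpH, -0.083 to 0.08 for atpF, -0.052 to 0.04 for atpB and -0.089 to 0.068 for atpE in pTAC3, -0.024 to 0.22 for atpH in the genotype difference, and -0.058 to 0.10 for atpE in input. Leaf pair 2 had the lowest mean depth of the leaf libraries in each fraction, at 50.02 (IPOD) and 125.1 (input) reads per base with 1 copy of the repeat.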
